A study of Drosophila melanogaster with 12 samples.

Results

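The genes described here encode parts of the oxidative phosphorylation complexes of Drosophila melanogaster. They were taken by name, as every gene with a probe whose symbol in the probe annotation begins with ND-, UQCR-, COX followed by a digit, or ATPsyn, and no measured value entered the choice. This gave 63 genes on 67 probes, of 11980 genes named by 12574 probes with 1 symbol. They comprise 47 subunits and 16 copies, which are genes of the same families whose symbols end in L, L1 or L2, for "like". Complex I has 31 members (26 subunits and 5 copies), complex III 5 (3 and 2), complex IV 14 (8 and 6) and complex V 13 (10 and 3). No assembly factor matches these names, and subunits whose symbols follow another scheme, such as the complex III iron-sulfur subunit RFeSP, fall outside the rule. Of the probes outside the count, 3 name ND-AGGG together with CR40472 and scro, and could not be given to 1 gene. All 63 members were found in the RefSeq gene table, and no 2 of them are neighbours there.

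Oxidative phosphorylation is the chain by which mitochondria turn the energy of NADH and succinate into ATP. Complex I takes electrons from NADH in its matrix arm and pumps protons through its membrane arm, complex III passes the electrons from ubiquinone to cytochrome c, complex IV hands them to oxygen, and complex V, the ATP synthase, lets the protons back through a rotary motor that makes ATP. Most subunits are encoded in the nucleus, where the genes measured here lie, and a set held in the mitochondrial genome is not among them. The early fly embryo develops on mitochondria and messenger RNA supplied by the mother, and many nuclear genes of the chain have a second copy that in adult flies is expressed mainly in the testis.

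Dichaete, the protein the study is about, belongs to the SoxB family, binds DNA through its HMG domain and acts in the embryonic midline. Females carrying simGal4, a driver active in midline cells, were crossed to males with a UAS construct, and whole embryos of stage 8 to 9 were collected 3.5 to 4.5 h after laying at 25 °C. The 3 constructs are named EnRep, DichaeteWT and HMG-minus in the labels, and control embryos expressed UAS GFP under the same driver. EnRep and HMG-minus are not described further in the labels. The design text terms all 3 constructs dominant negative, although the titles name Dichaete as WT. Each construct was compared with GFP on 4 two-colour arrays, which the design text calls independent biological replicates, 12 arrays in all. Construct RNA carried Cy3 on replicates 1 and 2 and Cy5 on replicates 3 and 4. The labels do not say whether GFP RNA was shared between constructs. Because RNA came from whole embryos, a change in the midline is diluted by all other cells, and fewer cells of a type cannot be told apart from less RNA per cell. All 4 of the 7 listed midline markers that had a probe were accepted by the spot finder on at least 6 arrays.

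Values below are log2 ratios of construct over GFP, so 0 means equal signal, and a called probe has a Benjamini-Hochberg adjusted p under 0.05 in limma's fit over all 14485 probes. The array medians of spot intensity were 247 to 433 in Cy3 and 280 to 421 in Cy5, over local backgrounds of 71 to 196, and precision is limited by how many arrays there are: a probe's standard error (SE) had a median of 0.0966 against GFP and of 0.137 between constructs. Both channels were accepted by the spot finder on all 12 arrays for 30 of the 51 subunit probes (58.8%), for 1 of the 16 copy probes (6.25%) and for 5985 of all 14485 probes (41.3%). Replicate 4 of EnRep stood apart from its group in a list of 13 measured late embryonic muscle and cuticle genes, whose median was -0.53, -0.24, -0.20 and 0.98 on EnRep replicates 1 to 4. That median was 0.41, 0.52, -0.29 and -0.25 on the DichaeteWT arrays and -0.24, -0.10, -0.59 and -0.31 on the HMG-minus arrays. A list of 11 measured maternal transcripts lay highest on the HMG-minus arrays, at 0.25, 0.24, 0.45 and 0.50.

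Over all 63 members, 1 gene, ND-PDSW of complex I, passed the test against GFP, and in 1 construct only, HMG-minus. The median of the members was -0.01 in EnRep, with 30 of 63 above 0, against 0.01 and 53.1% over all probes. In DichaeteWT it was 0.10, with 47 of 63 above 0 (74.6%), against 0.01 and 51.8%. In HMG-minus it was 0.07, with 43 of 63 above 0 (68.3%), against 0.00 and 49.3%. Cytosolic ribosomal protein probes were above 0 for 35 of 52 in DichaeteWT (67.3%) and 42 in HMG-minus (80.8%). Mitochondrial ones were for 33 of 68 (48.5%) and 41 (60.3%). No member was called in EnRep, where 0.753% of all probes were called, and none in DichaeteWT, where 0.863% were. In HMG-minus 1 member was called, higher than GFP, against 0.421% of all probes called higher and 0.856% in either direction. At an unadjusted p under 0.05, limma passed 7 of 63 member genes in EnRep (11.1%, against 14.1% of all probes), 10 in DichaeteWT (15.9%, against 15.6%) and 7 in HMG-minus (11.1%, against 13%). Of these genes, 2 were higher and 5 lower in EnRep, 9 higher and 1 lower in DichaeteWT, and 6 higher and 1 lower in HMG-minus.

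The members' median on single arrays shows how these shifts vary. It was -0.04, -0.04, -0.15 and 0.09 on EnRep replicates 1 to 4, a mean of -0.04 ± 0.10 (SD, n = 4). It was 0.11, 0.01, 0.20 and 0.02 on the DichaeteWT arrays, a mean of 0.09 ± 0.09, and 0.11, 0.03, 0.07 and 0.12 on the HMG-minus arrays, a mean of 0.08 ± 0.04. All 8 arrays of DichaeteWT and HMG-minus lay above 0, 3 of the 4 EnRep arrays below it, and EnRep replicate 4, high in late genes, within the range of the other constructs. Leaving out that array took the EnRep median to -0.10 with 15 of 63 members above 0. Leaving out EnRep replicate 3 instead took it to 0.04 with 39 of 63 above 0. A fit that took the late-gene median of each array into account gave medians of -0.02, 0.08 and 0.08 for EnRep, DichaeteWT and HMG-minus. The DichaeteWT and HMG-minus medians kept their sign under all scalings tried, but their size did not hold for DichaeteWT, at 0.03 with 38 of 63 above 0 when arrays were only centred on their medians. EnRep was lower under that centring, at -0.16 with 16 of 63 above 0, and on the authors' deposited log2 ratios, at -0.12. In the heat map of members by array, many rows change colour with the dye.

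**Figure D1:**
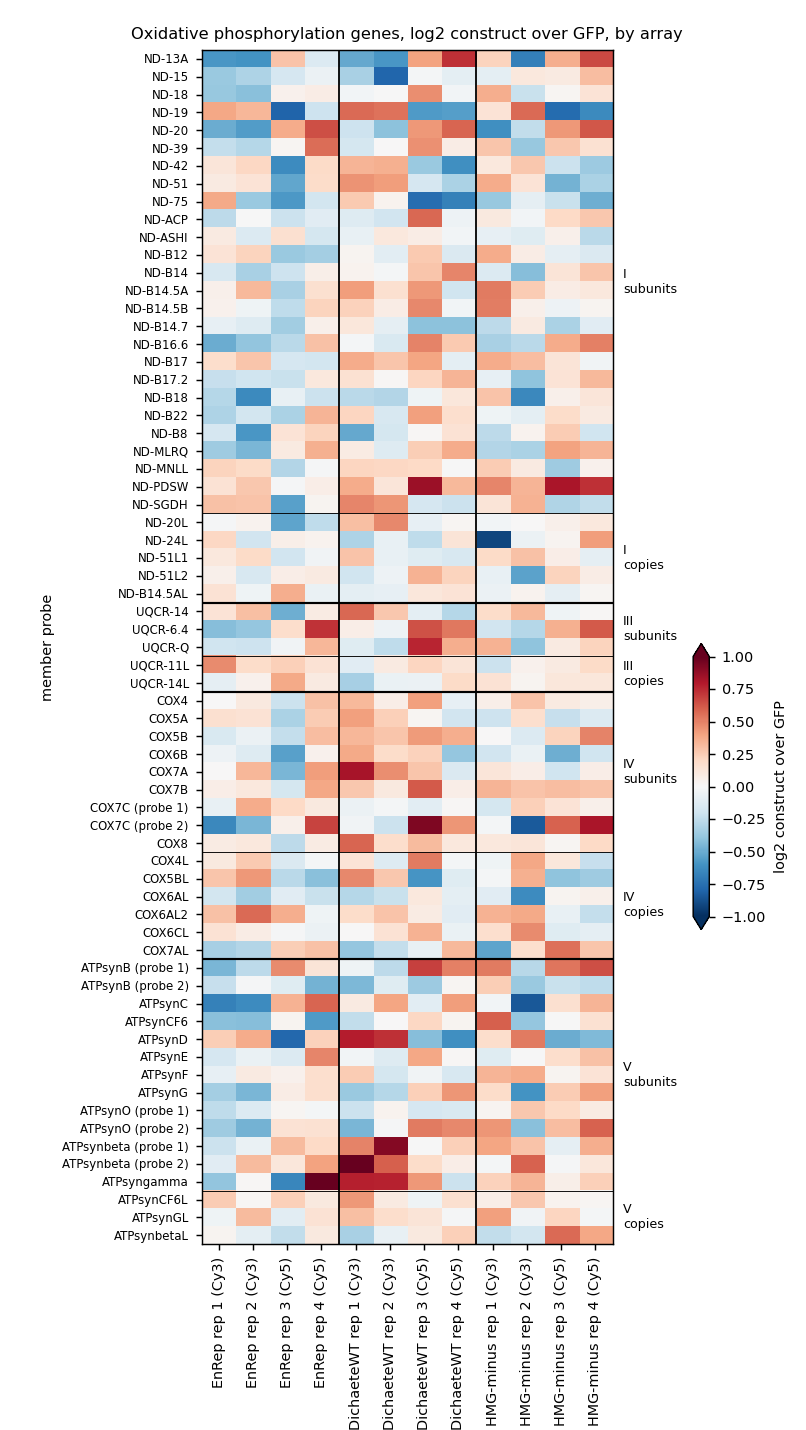
Log2 construct over GFP of the 67 member probes (rows, grouped by complex into subunits and copies) on the 12 arrays (columns, with the dye that carried the construct); red is above 0, blue below 0, and colours saturate at 1 and -1. ND-PDSW is red on all HMG-minus and DichaeteWT arrays, whereas rows such as ND-20 and ND-19 switch sign between Cy3 and Cy5 arrays.

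Among the 10 subunits of the complex I matrix arm, which holds the NADH site and the chain of iron-sulfur clusters, no probe was called in any construct. Their median was -0.12 in EnRep with 2 of 10 above 0, 0.10 in DichaeteWT with 8 of 10, and 0.02 in HMG-minus with 5 of 10. ND-75, the homologue of human NDUFS1 and the largest core subunit, which carries iron-sulfur clusters, had the lowest mean of the 3 constructs in complex I. It lay at -0.38, -0.09, -0.22 and -0.49 on the HMG-minus arrays, below 0 on all 4 (-0.30, SE 0.135, adjusted p = 0.378). On the DichaeteWT arrays ND-75 gave 0.26, 0.04, -0.76 and -0.67, a split by dye. ND-B14, the NDUFA6 homologue, was -0.16, -0.33, -0.21 and 0.06 in EnRep and 0.04, -0.02, 0.28 and 0.49 in DichaeteWT, and the ranges of these groups overlapped only between -0.02 and 0.06. Its difference of 0.36 (SE 0.117) had the smallest unadjusted p of any member for DichaeteWT minus EnRep, 0.0096, and did not pass the adjustment (adjusted p = 0.997). ND-B17.2, the NDUFA12 homologue, differed in the same direction by 0.31 (adjusted p = 0.997).

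The membrane arm, whose 14 measured subunits surround the proton channels, held the 1 member that passed. ND-PDSW, the homologue of NDUFB10, gave 0.49, 0.34, 0.82 and 0.73 on HMG-minus replicates 1 to 4, 0.37, 0.12, 0.86 and 0.32 on the DichaeteWT arrays, and 0.14, 0.27, -0.01 and 0.07 on the EnRep arrays. All 4 HMG-minus arrays lay above all 4 EnRep arrays, while the DichaeteWT arrays overlapped both. ND-PDSW rose in HMG-minus by 0.60 log2 (SE 0.105, 95% interval 0.37 to 0.82), or 1.51-fold, with a limma adjusted p of 0.0221. In DichaeteWT its value was 0.42 (SE 0.105, adjusted p = 0.0855) and in EnRep 0.12 (adjusted p = 0.648). Neither HMG-minus minus EnRep (0.48, adjusted p = 0.645) nor HMG-minus minus DichaeteWT (0.18, adjusted p = 0.913) passed, so a difference between constructs was not shown. Its dye term was not called (adjusted p = 0.290), and the HMG-minus values were above 0 in both dye orientations. The call was lost when any 1 HMG-minus array was left out (adjusted p 0.0537 to 0.187), with the replicate block (0.0507) and without the dye term (0.0724). The gene was accepted in both channels on 3 of the 4 HMG-minus arrays, and on accepted spots alone the adjusted p was 0.0794.

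ND-15, the NDUFS5 homologue on the intermembrane face of the membrane arm, ran the other way. It was -0.37, -0.31, -0.16 and -0.06 in EnRep and -0.32, -0.79, -0.02 and -0.10 in DichaeteWT, below 0 on all 8 arrays, and -0.09, 0.11, 0.09 and 0.30 in HMG-minus. Only HMG-minus replicate 1 lay inside the range of the other constructs. Its values were -0.22 in EnRep (adjusted p = 0.281), -0.31 in DichaeteWT (adjusted p = 0.119) and 0.10 in HMG-minus, and HMG-minus minus DichaeteWT was 0.41 (SE 0.124, adjusted p = 0.719). ND-B18, the NDUFB7 homologue, was -0.29, -0.64, -0.07 and -0.21 in EnRep (-0.30, adjusted p = 0.273) and did not pass. ND-B17, the NDUFB6 homologue, was 0.37, 0.31, 0.13 and -0.04 in HMG-minus (0.19, adjusted p = 0.345) and had a near value of 0.24 in DichaeteWT. ND-B16.6, the NDUFA13 homologue, lay at -0.22 in EnRep, 0.15 in DichaeteWT and 0.07 in HMG-minus, a DichaeteWT minus EnRep difference of 0.37 (SE 0.130, adjusted p = 0.997). Over all 26 complex I subunits, 20 lay below 0 in EnRep, with a median of -0.09, against 7 below 0 in DichaeteWT and 11 in HMG-minus. The medians of whole complexes, copies included, moved with single arrays. Leaving out arrays in turn changed their sign in EnRep and for complex I in HMG-minus, and the others stayed above 0. In EnRep those of complexes I, III, IV and V were -0.07, 0.02, 0.03 and -0.01, but -0.15, -0.08, -0.04 and -0.09 without replicate 4 and 0.00, 0.10, 0.08 and 0.05 without replicate 3. With arrays only centred on their medians they were -0.18, -0.07, -0.14 and -0.19. In DichaeteWT they were 0.09, 0.11, 0.12 and 0.06, but 0.03, 0.05, 0.09 and 0.03 without replicate 3 and 0.13, 0.18, 0.18 and 0.13 without replicate 4. In HMG-minus they were 0.03, 0.10, 0.10 and 0.10, and over the arrays left out in turn they ran from -0.02 to 0.04, 0.08 to 0.13, 0.03 to 0.10 and 0.10 to 0.18. The plot of fitted values by complex shows that most member intervals cross 0.

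**Figure D2:**
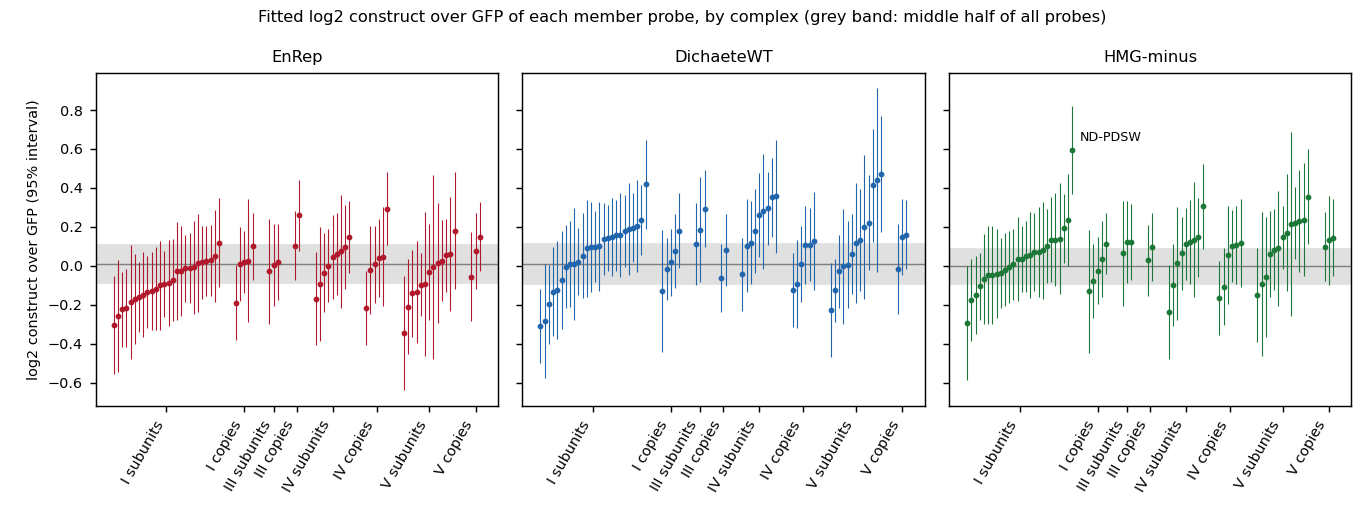
Fitted log2 construct over GFP of each member probe with its 95% interval, sorted within the subunits and copies of each complex, in 1 panel per construct; the grey line and band are the median and the middle 50% of all 14485 probes. The only member past an adjusted p of 0.05, ND-PDSW in HMG-minus at 0.60, is named.

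In complex III the 3 measured subunits, all small supernumerary proteins, were above 0 in DichaeteWT and in HMG-minus (medians 0.19 and 0.12) and at 0.01 in EnRep. UQCR-6.4, the member with the highest mean in this complex, was 0.06, -0.05, 0.64 and 0.52 on the DichaeteWT arrays, with both Cy5 arrays above both Cy3 arrays. The same split showed on the EnRep arrays (-0.43, -0.39, 0.17 and 0.73) and on the HMG-minus arrays (-0.19, -0.29, 0.35 and 0.61). Its fitted value in DichaeteWT was 0.29 (SE 0.0906, adjusted p = 0.146). UQCR-14 and UQCR-Q, the homologues of UQCRB and UQCRQ, lay at 0.11 and 0.19 in DichaeteWT and were not called. RFeSP, the Rieske iron-sulfur subunit that moves electrons to cytochrome c1, lies outside the naming rule. It gave 2.11, 1.54, 1.60 and 1.53 on the EnRep arrays, all far above its -0.35, -0.18, 0.10 and -0.47 on the DichaeteWT arrays and its -0.29, -0.61, -0.28 and -0.05 on the HMG-minus arrays. It rose in EnRep by 1.69 log2 (adjusted p = 3.2e-05) and was called for DichaeteWT minus EnRep (-1.92, adjusted p = 0.000429), a comparison in which 0.0207% of all probes were called. Of the 25 alternatives in processing and arrays used, 24 gave RFeSP a value in EnRep and 23 in HMG-minus. Its EnRep value ran from 1.32 to 2.21 over those 24, with a limma adjusted p of at most 0.0264. Among the alternatives, members lost values only when the dimmest 20% of probes were left out or on accepted spots alone. The 23 values in HMG-minus mean that RFeSP lacked a value there under both, so its probe lies among the dimmest 20%. Cyt-c1, the partner subunit of RFeSP in the electron path, was at -0.18 in EnRep and was not called (adjusted p = 0.648).

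All 8 measured subunits of complex IV, which are nuclear-encoded proteins around the catalytic core, had fitted values above 0 in DichaeteWT, with a median of 0.22 and a range of 0.10 to 0.36. COX7C enters this count as the mean of 2 probes, of which reporter 1000038878 was above 0 on 1 of 4 DichaeteWT arrays. The same 8 subunits had a median of 0.04 in EnRep and 0.11 in HMG-minus, each with 6 of 8 above 0, and no subunit of the complex was called in any construct. On single DichaeteWT arrays the subunit median was 0.36, 0.18, 0.36 and -0.01, so replicate 4 did not share the shift. COX5B, a zinc-binding subunit on the matrix side, was above 0 on all 4 arrays, at 0.33, 0.28, 0.43 and 0.37 in DichaeteWT. Its EnRep values were -0.15, -0.06, -0.24 and 0.31, of which only that of replicate 4 lay inside the DichaeteWT range. COX5B was 0.35 over GFP in DichaeteWT (SE 0.0934, 1.28-fold, adjusted p = 0.0969) and did not pass. COX8 was 0.58, 0.17, 0.32 and 0.10 in DichaeteWT (0.29, adjusted p = 0.128), above 0 on all 4 arrays. COX7A, at 0.83, 0.47, 0.28 and -0.15 in DichaeteWT (0.36, adjusted p = 0.227), fell below 0 only on replicate 4.

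COX7B, the member of complex IV with the highest mean of the 3 constructs, was 0.34, 0.29, 0.31 and 0.28 on the HMG-minus arrays, an SD of 0.0265 between arrays. Its fitted value there was 0.31 (SE 0.100, 1.24-fold), with an SE larger than its own spread because limma shrinks variances toward all probes and pools the 3 constructs, and its adjusted p was 0.207. In DichaeteWT it was 0.27, 0.10, 0.61 and 0.06, wider but also above 0 on all 4. COX6B, a subunit on the outer face next to the cytochrome c site, lay at -0.19, -0.07, -0.49 and -0.20 in HMG-minus and at 0.38, 0.19, 0.23 and -0.38 in DichaeteWT. It was below 0 on all HMG-minus arrays (-0.24, adjusted p = 0.385), and the difference of -0.34 from DichaeteWT did not pass (adjusted p = 0.903). The probe pair for COX7C disagreed. Reporter 1000043584 had a called dye term (0.95 between orientations) and gave -0.03, -0.21, 0.93 and 0.44 in DichaeteWT, whereas reporter 1000038878 gave -0.06, -0.02, -0.11 and 0.01 on the same arrays.

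**Figure D3:**
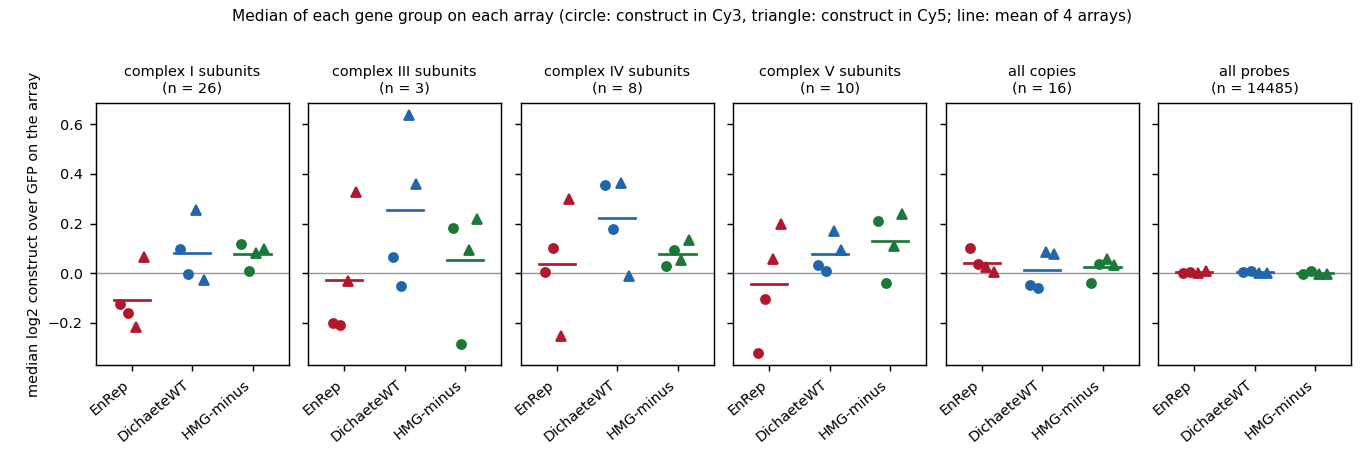
Median log2 construct over GFP of the subunits of each complex, of all copies and of all probes on each array; circles are arrays with the construct in Cy3, triangles those with it in Cy5, and lines the mean of the 4 arrays of a construct. Complex IV subunits sit at 0.36, 0.18, 0.36 and -0.01 on the DichaeteWT arrays, and all probes lie at 0 on each array.

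In the ATP synthase, ATPsynbeta and ATPsyngamma of the F1 head were both higher on DichaeteWT replicates 1 and 2 than on replicates 3 and 4. ATPsynbeta, the catalytic subunit that makes ATP, was measured by 2 probes with a like pattern on the DichaeteWT arrays. They differed in sign on EnRep replicate 2 (-0.06 by reporter 1000037777 and 0.32 by 1000042111) and on HMG-minus replicate 1 (0.39 and -0.02). Reporter 1000042111 gave 1.04, 0.60, 0.18 and 0.07 on the DichaeteWT arrays and reporter 1000037777 gave 0.50, 0.92, 0.00 and 0.24. Replicates 1 and 2 were high and replicates 3 and 4 were low for both. The fitted values were 0.47 (SE 0.138, 1.39-fold, adjusted p = 0.128) and 0.41 (SE 0.135, 1.33-fold, adjusted p = 0.163), and neither passed. ATPsyngamma, the rotor shaft, was 0.78, 0.77, 0.43 and -0.21 on the DichaeteWT arrays and -0.40, 0.01, -0.65 and 1.01 on the EnRep arrays. Its 3 highest arrays, EnRep replicate 4 and DichaeteWT replicates 1 and 2, are the 3 arrays on which the late-gene median was also highest (0.98, 0.41 and 0.52), and the part of that list in its values was not tested. It was not called (0.44 in DichaeteWT, SE 0.218, adjusted p = 0.352). Stunted (sun), the epsilon subunit, which lies outside the naming rule, was low on the Cy3 arrays of DichaeteWT and high on the Cy5 arrays, at -0.72, -0.57, 0.77 and 0.34 (-0.04, adjusted p = 0.883).

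In the peripheral stalk, which holds the F1 head still against the rotor, the probes of ATPsynB disagreed. ATPsynB, stalk subunit b, was 0.52, -0.28, 0.54 and 0.65 in HMG-minus by reporter 1000039877 and 0.25, -0.37, -0.22 and -0.25 by reporter 1000043075. Replicate 2 was the lowest of the 4 by both, and the other 3 differ in sign between the probes except replicate 1. The first probe had a fitted value of 0.36 (SE 0.113, adjusted p = 0.189) and the second of -0.15 (adjusted p = 0.631), so the gene has no single direction. The first probe had a called dye term (0.63 between orientations) and the second did not. ATPsynO, the OSCP subunit, gave 0.03, 0.27, 0.20 and 0.08 in HMG-minus by reporter 1000038000, above 0 on all arrays (0.15, adjusted p = 0.439), and 0.44, -0.42, 0.31 and 0.59 by reporter 1000045025 (0.23, adjusted p = 0.448). ATPsynCF6, the F6 subunit and the lowest member of the complex over the 3 constructs, was -0.42, -0.43, 0.03 and -0.56 in EnRep (-0.35, SE 0.136, adjusted p = 0.281). It was 0.60, -0.39, 0.00 and 0.15 in HMG-minus, where its sign turned to -0.12 when replicate 1 was left out. Of the membrane subunits, ATPsynF was 0.34, 0.37, 0.02 and 0.14 in HMG-minus, above 0 on all arrays (0.22, adjusted p = 0.301). Over the 10 subunits of complex V the median was -0.05 in EnRep, 0.03 in DichaeteWT and 0.10 in HMG-minus, with none called.

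**Figure D4:**
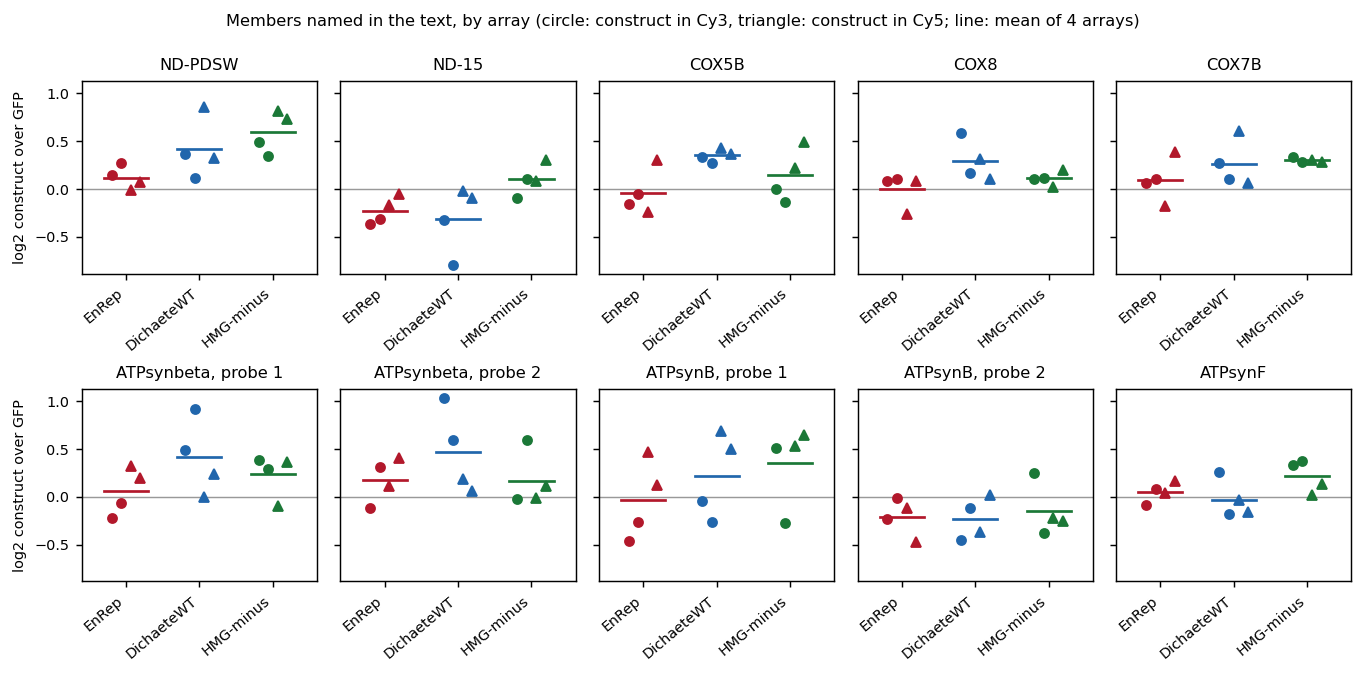
Log2 construct over GFP of 8 named genes (10 panels, since ATPsynbeta and ATPsynB have 2 probes each) on each array; circles are arrays with the construct in Cy3, triangles those with it in Cy5, and lines the mean of the 4 arrays of a construct. ND-PDSW lies between 0.34 and 0.82 on the HMG-minus arrays, and the ATPsynB panels differ in direction on HMG-minus replicates 3 and 4.

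The 16 copies lay closer to 0 than the subunits in DichaeteWT, with a median of 0.05 against 0.12, but not in the other constructs. Their median was 0.03 in EnRep, against -0.03 for the subunits, and 0.08 in HMG-minus, against 0.07. None of the copies was called. For 11 copies the gene of the same symbol without the ending was also a member, and is called the parent here. Of these copies, 10 were accepted in both channels on fewer arrays than the parent, and the remaining one, ND-B14.5AL, on as many. Genes of the same families with other symbols, such as levy for COX6A and cype for COX6C, were not counted as parents. ND-24L and ATPsynGL were accepted in both channels on 1 of 12 arrays each, as was the subunit ND-ASHI. Their ratios enter the medians, counts and plots here but are not described singly. On accepted spots alone, the median of the members with a value was -0.01 in EnRep (62 members), 0.11 in DichaeteWT (61) and 0.05 in HMG-minus (60). Of the 5 listed testis genes with a probe, 3 were accepted on at least 6 arrays, and their median ranged from -0.23 to 0.35 over the 12 arrays. COX6AL2, a second copy of the COX6A family, had the smallest unadjusted p of any member in EnRep, at 0.29, 0.56, 0.36 and -0.04 (0.29, SE 0.0860, adjusted p = 0.153). UQCR-11L was 0.48, 0.19, 0.23 and 0.14 in EnRep, above 0 on all 4 arrays (0.26, adjusted p = 0.203). COX6AL had the lowest mean of the 3 constructs in complex IV, and was below 0 on all 4 EnRep arrays at -0.19, -0.35, -0.11 and -0.23 (-0.22, adjusted p = 0.294).

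Copies and parents did not take the same values. COX5BL was at 0.01 in DichaeteWT where COX5B was at 0.35, COX7AL at -0.09 where COX7A was at 0.36, and ATPsynbetaL at -0.02 where ATPsynbeta was at 0.44 over its probes. In EnRep, ATPsynCF6L was at 0.15 and ATPsynCF6 at -0.35. COX6AL and COX6AL2 were at -0.13 and 0.11 in DichaeteWT, and levy at 0.37. COX4L and COX4 were nearer, at 0.13 and 0.18 in DichaeteWT. ND-20L lay at -0.19 in EnRep, 0.18 in DichaeteWT and 0.03 in HMG-minus, and ND-20 at -0.01, 0.10 and 0.05. ND-51L1 and ND-51L2 were at -0.02 and 0.08 in DichaeteWT and their parent ND-51 at 0.10. ND-B14.5AL was at -0.02 and ND-B14.5A at 0.24 in HMG-minus. UQCR-14L was at 0.10 in EnRep and -0.06 in DichaeteWT, against 0.01 and 0.11 for UQCR-14. These gaps were not tested, and how far a copy's probe takes up the RNA of its parent is not known from the files.

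More of these probes were called for dye than for any construct. Of the 67 member probes, 30 had a called dye term (44.8%), against 33.1% of all probes; 19 were higher and 11 lower with the construct in Cy5. In the matrix arm of complex I, 8 of 10 probes had one. ND-20, the NDUFS7 homologue that carries the last iron-sulfur cluster before ubiquinone, gave -0.50, -0.56, 0.37 and 0.65 in EnRep. Its gap between orientations was 0.94 over the 12 arrays. ND-19, the NDUFA8 homologue, gave 0.39, 0.33, -0.80 and -0.21 on the EnRep arrays. Over the 12 arrays ND-19 had a gap of -1.01, and ATPsynD, stalk subunit d, a gap of -0.89. In both, the sign followed the dye in every construct except ATPsynD on EnRep replicate 4. Since each construct has 2 arrays of either orientation, the dye term cancels in the fitted values, but it widens the spread of the 4 raw values.

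**Figure D5:**
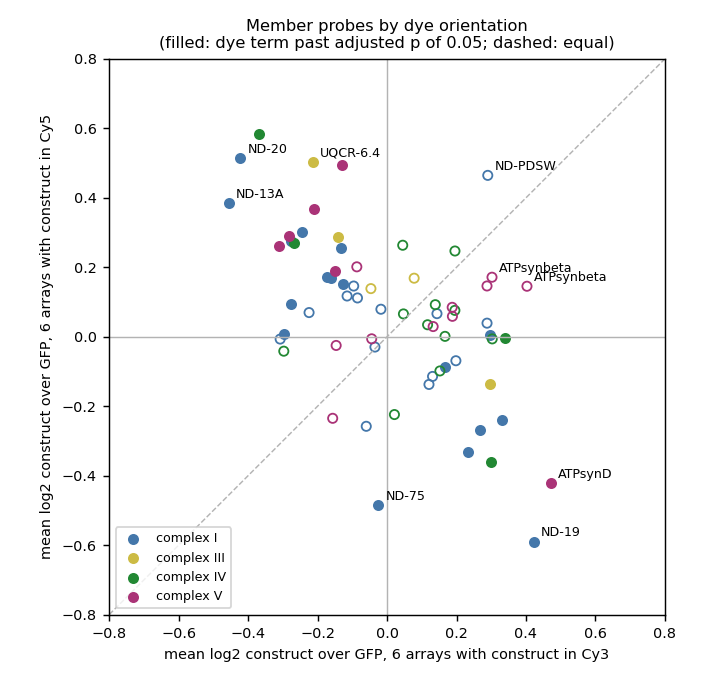
Mean log2 construct over GFP of each member probe over the 6 arrays with the construct in Cy3 (horizontal) and the 6 with it in Cy5 (vertical), coloured by complex; filled points have a called dye term, and the dashed line marks equal values. ND-20 (-0.42 and 0.51) and ND-19 (0.42 and -0.59) lie far from the line on either side, while ND-PDSW (0.29 and 0.46) lies above 0 in both.

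Counted by sign, 10 of 67 member probes were above 0 on all 4 HMG-minus arrays (14.9%, against 8.22% of all probes) and 2 below 0 on all 4 (2.99%, against 7.85%). Those above were ND-B14.5A, ND-PDSW, UQCR-14L, COX4, COX7B, COX8, ATPsyngamma, ATPsynF, ATPsynO and ATPsynCF6L, and those below ND-75 and COX6B. In DichaeteWT 6 were above 0 on all 4 arrays (8.96%, against 7.19%) and 1 below (1.49%, against 7.08%). In EnRep 2 were above (2.99%, against 9.35%) and 5 below (7.46%, against 7.15%), among them ND-15, ND-B18 and ND-ACP, the acyl carrier protein. The numbers of probes behind these shares are small, and no test was made of them.

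Between constructs, no member was called in any of the 3 differences. For DichaeteWT minus EnRep 0.0207% of all probes were called, for HMG-minus minus EnRep 0.0276%, and for HMG-minus minus DichaeteWT 0%. The 3 differences share arrays pairwise. DichaeteWT lay above EnRep for 50 of the 63 members, with a median difference of 0.12 against 0.00 over all probes, and 6 genes had an unadjusted limma p under 0.05 (9.52%, against 4.46% of all probes), all higher in DichaeteWT. They were ND-B14, ND-B17.2, ND-B16.6, ND-20L, COX5B and COX8. HMG-minus lay above EnRep for 42 members (median 0.08), with 6 genes at that level (9.52%, against 6.85%), again all higher. HMG-minus lay above DichaeteWT for 23 members (median -0.04), with 3 genes at that level (4.76%, against 5.27%). Among ribosomal protein probes, DichaeteWT lay above EnRep for 55 of 68 mitochondrial (median 0.12) and 42 of 52 cytosolic ones (0.07). For HMG-minus over EnRep these counts were 57 and 41 (0.15 and 0.11), and for HMG-minus over DichaeteWT 48 and 36 (0.04 and 0.05). Lying above EnRep was thus not particular to the members. COX5B gave the largest DichaeteWT minus EnRep value of a single-probe complex IV subunit, 0.39 (95% interval 0.10 to 0.67, adjusted p = 0.997). With a median SE of 0.137, differences of the size seen here could not be told from 0 after adjustment over all probes.

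The mitochondrial genes beside these complexes lay in a similar range. Complex II, succinate dehydrogenase, links the citric acid cycle to the chain, and its 5 measured genes of 8 listed had medians of 0.00 in EnRep, 0.12 in DichaeteWT and 0.02 in HMG-minus, with 3, 4 and 4 of 5 above 0 and none called. SdhD, its membrane anchor, was 0.61, 0.34, 0.48 and 0.14 on the DichaeteWT arrays, above 0 on all 4 (0.39, adjusted p = 0.129). Of 15 listed electron carriers and subunits with other names, 6 were measured and RFeSP alone was called. Levy, a complex IV subunit of the COX6A family, was at 0.37 in DichaeteWT (adjusted p = 0.168) and bellwether (blw), the alpha subunit of the ATP synthase, at 0.35 (adjusted p = 0.505). On the DichaeteWT arrays blw was 1.51, 1.45, -0.68 and -0.87, and on EnRep replicate 4 it was 0.62. Like ATPsyngamma, blw was highest on DichaeteWT replicates 1 and 2 and EnRep replicate 4, and the part of the late genes in this was not tested. The 13 measured citric acid cycle genes of 24 listed had a median of 0.10 in DichaeteWT, with 11 above 0, and 0.01 in both EnRep and HMG-minus, with none called. The 7 measured mitochondrial carriers of 12 listed had a median of 0.23 in DichaeteWT and 0.02 in EnRep and HMG-minus, with 4 of 7 above 0 in each and none called. On the DichaeteWT arrays that median was 0.13, 0.32, -0.07 and 0.04. The 8 measured assembly factors of 18 listed were all below 0 in EnRep, with a median of -0.09, at -0.07 in DichaeteWT and -0.03 in HMG-minus, and none was called.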

How the data were processed

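Per the file headers, each array file holds the median pixel intensity of every spot and of its local background in Cy3 and Cy5, quantified by Dapple and not normalized. The series value table holds log2 ratios made by the authors; per the submitters' processing notes limma was used, and the background correction and centring behind these deposited log2 values are not given in the sources used here. Their array medians lay between -0.03 and 0.02, and they correlated at 0.872 to 0.968 with the ratios computed here, so their direction is construct over GFP.

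In R 4.3.3 with limma 3.58.1, intensities of 18240 spots per array were corrected by normexp (offset 50) and the 14569 spots of the value table normalised by global loess; 3671 other spots were not analysed here. Ratios were turned to construct over GFP from the labelled dyes, and spots averaged by reporter, giving 14485 probes. A linear model held 3 constructs and a dye term, with empirical Bayes variances (8 residual degrees of freedom), and p-values, two-sided, were adjusted by Benjamini-Hochberg over all probes in each of 6 comparisons. Genes with several probes were averaged in medians and tested per probe. The fit was tested on simulated data.

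Named members were, per comparison, the 5 with the smallest unadjusted p, the highest and lowest mean of each complex, all with several probes, and all copies with their parents; RFeSP was added, as were members shown for array, dye or sign patterns (ATPsyngamma, ATPsynD, ND-19, ND-ACP, ND-ASHI and UQCR-Q) and genes of the other lists, chosen after their values were seen. Members, lists and rules were chosen with earlier results of these data known. The 25 alternatives changed background correction, normalization, dye term, replicate block, filters, variance model, covariate and arrays used.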

Additional observations from a re-analysis of the deposited data

Results flagged for a closer look

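One array stood far from the other 3 of its group. ATPsynB by reporter 1000039877 lay at -0.28 on HMG-minus replicate 2, while replicates 1, 3 and 4 lay at 0.52, 0.54 and 0.65, so that the gap was 0.86 of the range, over Dixon's 95% critical value of 0.829 for 4 arrays. This was 1 of 52 groups examined, and chance alone flags about 1 in 20. The second ATPsynB probe was also lowest on that array, at -0.37. Reporter 1000039877 had a called dye term (0.63 between orientations, limma adjusted p = 0.00344), and HMG-minus replicates 1 and 2 carried the construct in Cy3. On the Cy3 arrays of the other constructs it lay at -0.46 and -0.26 in EnRep and -0.04 and -0.26 in DichaeteWT. The part of the dye in the flagged value, and whether this array carries a technical fault for these probes, was not tested.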

How the results depend on the processing

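The EnRep median of members was -0.01, but -0.16 after median centring and -0.12 from the deposited ratios. Leaving out single arrays moved the medians over -0.10 to 0.04 in EnRep, 0.05 to 0.15 in DichaeteWT and 0.05 to 0.08 in HMG-minus. In DichaeteWT, members called numbered 2 with print-tip loess (ND-15 and ND-PDSW) and 1 with the late-gene covariate (ND-PDSW, adjusted p = 0.0298). Of all 14485 probes, 466 and 300 were called in DichaeteWT under these settings, against 125 in the main fit. In HMG-minus, members called numbered 2 with print-tip loess (ND-PDSW and ATPsynO) and 3 with array weights (ND-PDSW, COX7B and ATPsynB). Under these settings 380 and 1099 of all probes were called in HMG-minus, against 124 in the main fit. Members called numbered 0 without the dye term or on accepted spots alone, where 23 and 95 of all probes were called. The range was 0 to 1 members when single arrays were left out. ND-PDSW then had adjusted p = 0.0708, 0.0537, 0.187 and 0.167 without HMG-minus replicates 1 to 4, and remained at 0.51 to 0.66 log2 under all alternatives. With the replicate block in place of the dye term, 0 members were called, against 53, 39 and 62 of all probes in EnRep, DichaeteWT and HMG-minus. Same-numbered arrays had residual correlations of -0.64 to 0.24, and 0 arrays correlated best with an array of their own number. Same-numbered arrays always share a dye, and a fit with a dye term makes the residuals of same-dye arrays cancel. That pulls these correlations down, so they cannot show whether the numbers mark paired arrays. The main fit took the numbers as names only, and this choice was not tested.

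Members near 0 changed sign. In EnRep, UQCR-6.4 was -0.067 with median centring, -0.052 with array weights and -0.0002 with the late-gene covariate, UQCR-14L -0.025 without background correction, COX7B -0.13 with median centring and -0.052 with deposited ratios, and ATPsynbeta -0.25 and -0.15 (reporter 1000037777) and -0.13 and -0.032 (reporter 1000042111) under these. In DichaeteWT, ATPsynCF6 was 0.0028 with an offset of 10, 0.019 with median centring, 0.12 with print-tip loess, 0.001 with deposited ratios and 0.032 with the late-gene covariate, and in HMG-minus -0.14 on accepted spots. Without single arrays the ranges in EnRep were -0.11 to 0.10 for UQCR-6.4, -0.0018 to 0.21 for COX7B and -0.062 to 0.19 for ATPsynbeta (reporter 1000037777); in DichaeteWT -0.13 to 0.0006 for UQCR-14L and -0.057 to 0.067 for ATPsynCF6; and in HMG-minus -0.12 to 0.25 for ATPsynCF6. The cause was not tested. Over all probes, calls ran from 4 to 353 in EnRep, 16 to 466 in DichaeteWT and 17 to 1099 in HMG-minus; higher and lower calls were 62 and 47 in EnRep but 34 and 85 with median centring and 38 and 57 with deposited ratios, and 55 and 70 in DichaeteWT but 30 and 82, and 19 and 46.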

Other observations

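The genes that make and maintain the respiratory chain were measured on the same arrays. The 68 mitochondrial ribosomal protein genes, whose products translate the subunits encoded in mitochondrial DNA, had a median of -0.14 in EnRep with 57 of 68 below 0, against 0.00 in DichaeteWT and 0.03 in HMG-minus. On single EnRep arrays that median was -0.18, -0.15, -0.21 and 0.05, with replicate 4 again apart from the other 3. Of these probes 1 was called in each construct, lower than GFP in EnRep and DichaeteWT and higher in HMG-minus. The 39 cytosolic ribosomal protein genes, on 52 probes, were at a median of 0.00 in EnRep, 0.09 in DichaeteWT and 0.08 in HMG-minus, and none was called. Their median was -0.13, -0.08, -0.04 and 0.16 on the EnRep arrays.

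Of 16 listed regulators of mitochondrial biogenesis, 9 were measured and none was called, with medians of -0.06 in EnRep and DichaeteWT and -0.03 in HMG-minus. Among them TFAM, which packages mitochondrial DNA, was at -0.23 in EnRep and -0.22 in HMG-minus (adjusted p = 0.376 and 0.448), and PolG1, the catalytic subunit of its polymerase, at -0.39 in DichaeteWT (adjusted p = 0.0762). Of the maternal transcripts, 11 of 11 measured genes were above 0 in HMG-minus, with a median of 0.29 and oskar (osk) called by its probes. The 13 measured early zygotic genes had medians of -0.04, -0.01 and 0.00 in the 3 constructs.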
